A study of Danio rerio with 12 samples.

Results

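The genes described here carry the names of families of core and regulatory splicing proteins, although not every member acts in pre-mRNA splicing. They were chosen by name alone, as the rows of the deposited expression table whose gene name begins with sf3a, sf3b, snrp, srsf, prpf, hnrnp or lsm followed by a digit. This rule found 84 of the 13680 listed genes, namely 9 sf3a and sf3b genes, 11 snrp genes, 13 prpf genes, 15 srsf genes, 24 hnrnp genes and 12 lsm genes. The 84 rows carry 83 names, since hnrnpa0l names 2 identifiers. Gene names of the form snrnp are not matched by the rule and are given with the other splicing genes near the end.

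The study compared zebrafish embryos whose fathers had been fed with embryos whose fathers had been starved. Sperm of either kind of male was mixed in vitro with eggs of fed wild-type females, all embryos carried the AB genotype, and RNA was taken from whole embryos at 24 hours after fertilisation, 1 to 3 embryos of a clutch to a library. Each group had 6 libraries and several fathers. The labels do not tie libraries to single fathers, and every p-value here sets a difference against the spread of these libraries, which may be partly technical.

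Splicing removes introns from pre-mRNA and is carried out by the spliceosome, which is assembled from small nuclear ribonucleoproteins (snRNPs). The snrp genes encode the ring of Sm proteins that coats most spliceosomal RNAs and proteins particular to single snRNPs, and lsm genes encode a related ring on U6 RNA and, in other family members, proteins of mRNA decay and translational repression in the cytoplasm. The SF3a and SF3b complexes belong to the U2 snRNP and hold it on the branch point, prpf genes encode proteins that assemble and activate the spliceosome, and SR proteins (srsf) and hnRNP proteins bind the transcript and favour or repress the use of exons. Many SR and hnRNP genes are also known to limit their own mRNA through alternative exons that lead to decay. In vertebrate embryos, splicing factor mRNAs are abundant in dividing and neural tissue.

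Values are read counts that the authors scaled by a size factor for each library. The libraries were made with a 3' tag kit, in which reads come from the polyadenylated end, so that a value does not scale with transcript length. How completely the reads of each gene were counted is not known. Levels of different genes, and their ratios, are therefore measured values and may differ from the true transcript ratios. The whole reads behind the values came to between 2950739 and 3934765 per library, and 22891 to 35243 of them fell on the 84 genes. The genes took between 0.697% of the reads in fed replicate 5 (95% exact Clopper-Pearson interval 0.688% to 0.706%, which covers counting error only) and 1.03% in fed replicate 2. The most abundant transcript, the mitochondrial ENSDARG00000080337, held 27.0% to 48.7% of the reads. Without it the 84 genes took 1.31% to 1.63%, with means of 1.44 ± 0.0925% in the fed group and 1.46 ± 0.116% in the starved group (SD, n = 6 each).

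Most splicing factor genes were well measured. Their median level was 65.5 scaled reads, against 8.87 over all listed genes, and 73 of the 84 had a mean of at least 20. Another 8 lay below 10, among them hnrnpa3 at 1.94 ± 0.990, hnrnph3 at 1.98 ± 0.968, lsm11 at 2.86 ± 1.80 and lsm1 at 3.40 ± 2.13 (SD over 12 libraries). These rest on few reads, for instance 2 to 11 per library of fed fathers for hnrnpa3, and a difference in them would have to be large to be detected. The hnRNP genes spanned the widest range of the classes and held the highest level of all members.

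**Figure D1:**
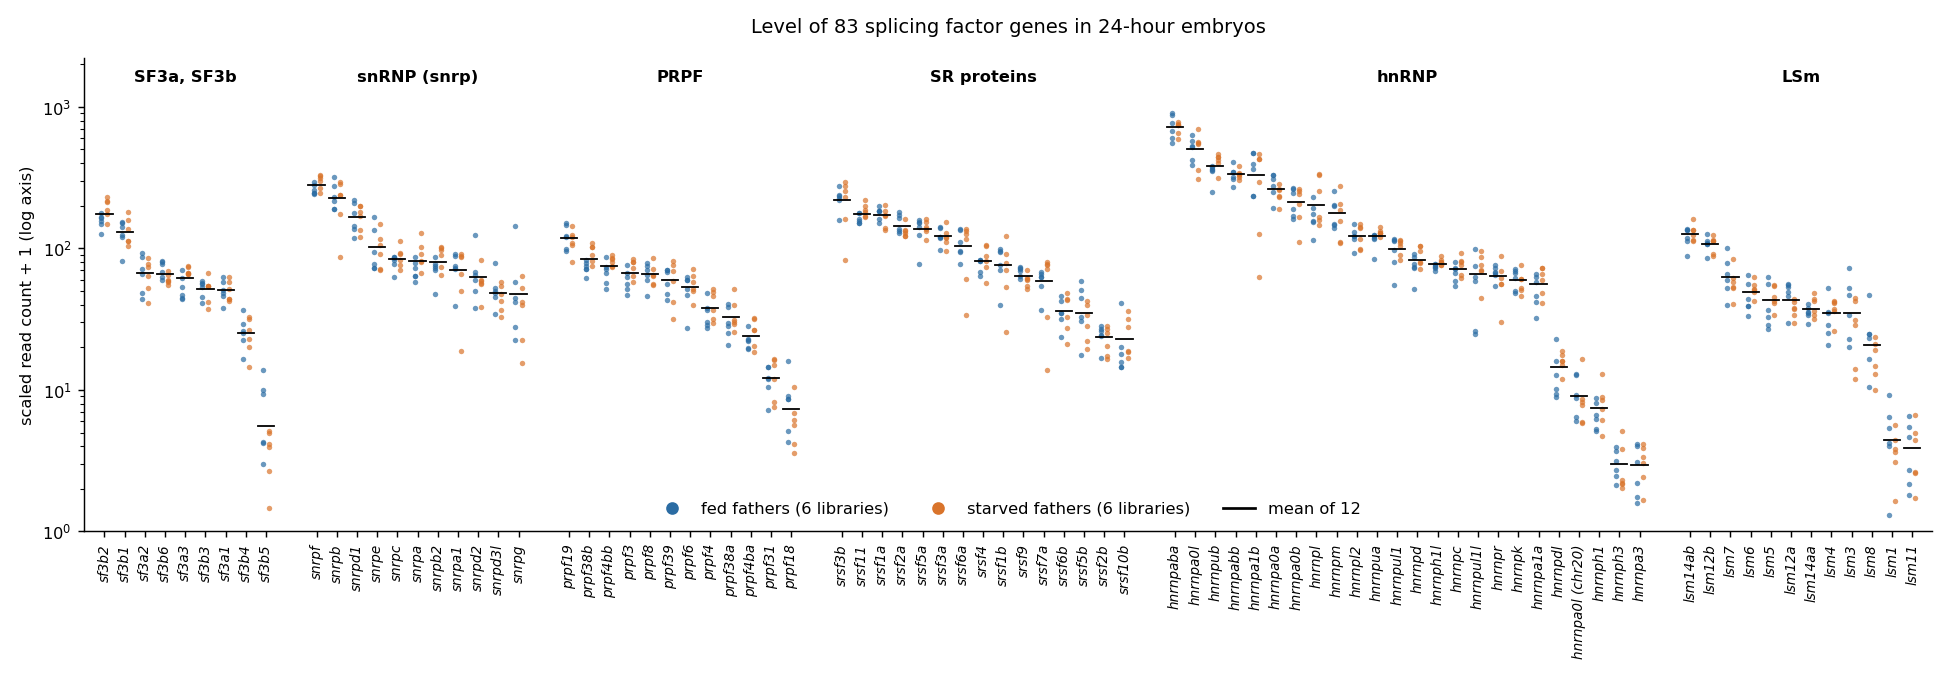
Scaled read count plus 1 (log axis) of 83 of the genes in every library, by class and in descending order of the mean. Blue points are the 6 libraries of fed fathers, orange points the 6 of starved fathers, and the bar is the mean of 12. The ranges of the groups overlap for every gene, and single low points such as srsf7a at 12.8 and hnrnpa1b at 62.0 belong to starved replicate 3.

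Among the hnRNP genes, hnrnpaba, which encodes a protein of the A/B type that binds pre-mRNA and mRNA, led with 721 ± 109 (SD, n = 12). It was followed by the A0 gene hnrnpa0l on chromosome 14 with 506 ± 117 and by hnrnpub, which encodes a copy of the nuclear scaffold protein hnRNP U, with 380 ± 60.7. Near the bottom of the class stood hnrnpa3 and hnrnph3, given above, and the second hnrnpa0l row, on chromosome 20, with 8.10 ± 3.35, whose identifier is called gzf1 in a reference list of gene names. The A0 genes hnrnpa0b and hnrnpa0l lie 1265 bases apart on chromosome 14 (bases 38845674 to 38848166 and 38849432 to 38850933, build GRCz11). Reads of such similar neighbours may have been split with error, and the sources used here do not give the counting rules.

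SR protein genes were led by srsf3b, an SR protein gene that couples splicing to export, at 220 ± 60.0, srsf11 at 174 ± 20.1 and srsf1a, which encodes the classic factor that promotes exon inclusion, at 171 ± 21.9 (SD, n = 12). The lowest were srsf10b at 21.8 ± 9.09 and srsf2b at 22.5 ± 4.52. All 15 SR genes thus had a mean above 20.

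In the snRNP class, which also had no member below 20, the Sm ring genes did not share a level although their proteins are built into the ring in equal numbers. Of the 7 Sm genes listed (snrpb, snrpd1, snrpd2, snrpd3l, snrpe, snrpf and snrpg), snrpf stood at 279 ± 32.6 and was the highest in 9 of 12 libraries. Next came snrpb with 228 ± 64.0 and snrpd1 with 167 ± 35.7. At the other end snrpg stood at 46.8 ± 33.7 and was the lowest in 8 libraries. The ratio of snrpf to snrpg ran from 2.05 to 18.5 among libraries.

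A similar spread was seen in the other complexes. In the LSm ring, of which 6 genes were listed, lsm7 had 61.3 ± 17.8 and lsm8, which marks the nuclear ring on U6 RNA, had 19.7 ± 9.90 and was the lowest in 11 of 12 libraries. The highest lsm values belonged to lsm14ab with 125 ± 18.1 and lsm12b with 107 ± 13.3, neither of which is part of that ring. In SF3b, sf3b2 had 174 ± 31.2 and sf3b1, the large subunit that contacts the branch point region, 130 ± 27.3. The small subunit gene sf3b5 stood far below them at 4.59 ± 3.59, the lowest of the 6 SF3b genes in 12 of 12 libraries. The 3 SF3a genes were closer to each other, between 49.6 ± 8.22 (sf3a1) and 65.9 ± 17.6 (sf3a2). Among prpf genes, prpf19, which encodes a ubiquitin ligase of the activated spliceosome, had 117 ± 21.8 and prpf38b had 82.6 ± 14.4. The lowest was prpf18, a factor of the second catalytic step, with 6.36 ± 3.48, and prpf31, a protein of the U4/U6 snRNP, had 11.2 ± 3.29.

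The comparison the study was made for asked whether the father's feeding left a difference in the embryos. For the splicing factor genes no such difference passed the test. With limma on log2(value + 1), fitted on all 13680 genes, 0 of the 84 genes had an adjusted p below 0.05 (0% of all listed genes did), and the smallest adjusted p of a member was 0.868 (sf3a3). At an unadjusted p below 0.05 there were 5 members, or 5.95%, against 5.54% of all listed genes, a share near the background in this fit, which has no block. Of these 4 were higher in the starved group (2.11% of all listed genes were higher at that threshold) and 1 was lower (3.44%). With the replicate number as a block, 12 members (14.3%) stood at that threshold against 9.21% of all listed genes. In that fit 0 members passed after adjustment, and 39 of all listed genes did. By edgeR's quasi-likelihood test and by DESeq2 on whole reads 0 members passed as well, each with 5 members at an unadjusted p below 0.05, where 4.74% and 5.51% of all listed genes stood. In 0 of 84 genes did the groups fail to overlap (0.234% of all listed genes), and the authors' deposited table lists 0 of the 84 at an FDR below 0.1 (1.06% of all listed genes). The member nearest to that limit was lsm3, with an FDR of 0.303 in the authors' deposited table.

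Direction was evenly split with all 12 libraries. In the starved group 41 of the 84 genes averaged higher on the log2 scale and 43 averaged lower, so that 48.8% were higher where 48.0% of all listed genes were. The median log2 difference was -0.01 for the members and -0.01 for all genes, and 81 members lay within 0.5 of 0. A typical member's difference had a standard error of 0.20 on the log2 scale, so differences of about that size were within the error. Without starved replicate 3 the median of the members was 0.08, with 56 of the 84 higher. Of all listed genes 48.55% were higher in that fit, with a median of -0.01, so the even split of the members depended on this library. In whole embryos, a lower value cannot tell fewer cells of a type from less RNA per cell.

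The 5 members at an unadjusted p below 0.05, none of which passed, came from 3 classes. For sf3a3, a subunit of the SF3a complex, the libraries of fed fathers ran from 42.8 through a median of 49.3 to 69.9 and those of starved fathers from 64.5 through 65.8 to 74.5 (lowest, median, highest). Only the highest library of fed fathers lay above the lowest of starved fathers' libraries for this gene, and the log2 difference was 0.39 ± 0.16 (SE; limma adjusted p = 0.868). The value of sf3b2 was 155 ± 17.9 (fed) and 193 ± 30.7 (starved; SD over 6 libraries), which differ by 0.31 ± 0.15 on the log2 scale. The smallest SF3b subunit gene, sf3b5, ran the other way, from 2.0 through 5.84 to 12.7 (fed) and from 0.47 through 3.06 to 4.12 (starved), with a log2 difference of -0.90 ± 0.42 on 2 to 34 reads per library. No starved library reached the fed mean, yet 3 fed libraries were as low as the starved ones. The remaining pair were snrpa, which binds U1 RNA, with 69.6 ± 10.8 (fed) and 90.5 ± 21.3 (starved), and prpf38b, with 72.8 ± 7.31 and 92.4 ± 13.2. Limma's adjusted p was 0.885 for the 4 genes other than sf3a3. The number of members at this threshold was 3 without fed replicate 2 (3.57%, against 5.29% of all listed genes) and 2 without fed replicate 5 (2.38% against 4.23%). It was 2 without starved replicate 3 (2.38% against 4.99%) and 1 without starved replicate 6 (1.19% against 4.82%).

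**Figure D2:**
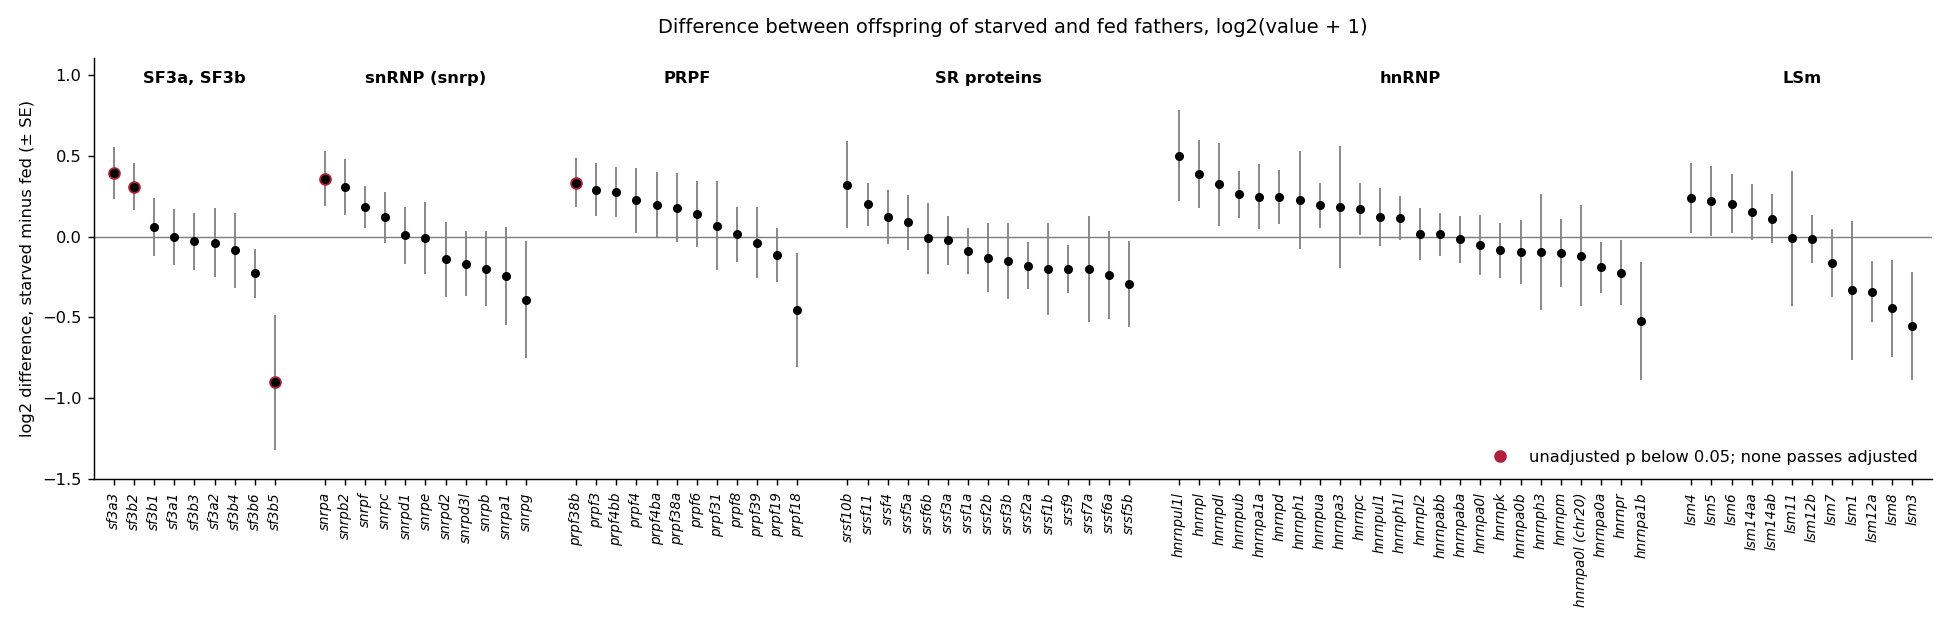
Log2 difference of 83 of the genes, starved minus fed, with its standard error (limma on log2(value + 1)), in descending order within each class. Red points mark the 5 genes at an unadjusted p below 0.05, of which 0 passed after adjustment; sf3b5 at -0.90 has the lowest value.

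By class, the prpf genes had 10 higher and 3 lower members (median log2 difference 0.15) and the SR genes 4 higher and 11 lower (median -0.13), while hnrnp genes had 14 and 10 (0.07), snrp genes 5 and 6 (-0.01), lsm genes 5 and 7 (-0.01) and sf3a and sf3b genes 3 and 6 (-0.03). These are counts of direction only, since no member passed. Those of the SR class may depend on starved replicate 3, where the class mean of log2 values centred per gene was -0.63. The median of the SR class means over 6 libraries was 0.08 in the fed and 0.12 in the starved group. Direction by class was not counted without starved replicate 3. Besides those named above, the smallest p of each class fell on members whose groups overlapped. In the prpf class they were prpf3, a U4/U6 snRNP protein (59.2 ± 10.8 fed, 72.1 ± 10.3 starved), and prpf4bb, a copy of the splicing kinase gene (66.9 ± 12.3 and 80.2 ± 6.14). In the snrp class they were snrpb2, which binds U2 RNA (70.6 ± 13.2 and 87.2 ± 15.4), and snrpf (261 ± 21.4 and 297 ± 33.2). Lsm genes were represented by lsm12a (47.2 ± 9.95 and 36.5 ± 5.14), lsm3 (40.5 ± 19.9 and 27.8 ± 13.8) and lsm8 (23.4 ± 12.4 and 15.9 ± 5.24). For the SR class the smallest p belonged to srsf11 (162 ± 12.3 and 186 ± 19.6), srsf9 (67.5 ± 5.15 and 58.8 ± 6.57) and srsf2a (151 ± 23.1 and 133 ± 14.9). The hnrnp genes were hnrnpl, which binds CA-rich repeats (170 ± 39.4 and 231 ± 87.5), hnrnpub (346 ± 49.1 and 414 ± 54.2) and hnrnpul1l (56.4 ± 28.5 and 72.8 ± 17.5). All values in this paragraph are means ± SD over 6 libraries, and limma's adjusted p lay between 0.885 and 0.935 for every gene named here. The log2 difference of hnrnpul1l was 0.50 with all libraries, 0.29 without fed replicate 4, 0.31 without fed replicate 5 and 0.00 without both, and that of lsm8 was -0.44 with all libraries and -0.22 without fed replicate 5.

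Single libraries also differed, both within a paternal group and over all 12. Since the labels do not tie libraries to single fathers, differences between fathers cannot be told apart from these. Stable members varied little. The splicing silencer gene hnrnph1l ranged from 68.5 to 87.2 over the 12 libraries, a coefficient of variation of 6.52%, and hnrnpabb, srsf9, srsf11, snrpf and hnrnpua had coefficients of 10.4% to 11.7%. The median coefficient of variation of the 73 members with a mean of at least 20 was 20.4%, against 23.4% over the 4114 listed genes at that level. Among these 73 genes the other end held hnrnpa1b (chromosome 23, bases 36306539 to 36310418, GRCz11), which encodes a copy of the exon-repressing protein hnRNP A1, with a 7.58-fold range, snrpg with a 9.89-fold and lsm3 with a 6.59-fold range. Each of these ranges ran from starved replicate 3 to fed replicate 5. Within the fed and the starved group, hnrnpa1b ran from 234 to 469 and from 62.0 to 466. The ranges were 21.4 to 143 and 14.5 to 62.4 for snrpg, and 19.1 to 71.5 and 10.8 to 43.9 for lsm3. Wider ranges in lsm1 (27.5-fold), sf3b5 (27.1-fold) and lsm11 (7.79-fold) rest on means below 10.

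Starved replicate 3 held the lowest value of 25 of the 84 genes (29.8%). It held the lowest value of 13.2% of all listed genes and of 16.7% of those with a mean of at least 20. Among SR genes it was the lowest in 8 of 15. The SR gene srsf7a, a factor related to srsf3 in its role in export, had 12.8 in that library, 31.8 and 35.5 in starved and fed replicate 6, 53.4 in fed replicate 3, and 61.8 to 78.6 in the other 8 libraries. For hnrnpa1b the same 4 libraries were lowest. It had 62.0 and 126 in starved replicates 3 and 6 and 234 and 235 in fed replicates 3 and 6, while all other libraries lay between 295 and 469. Starved replicate 3 was thus the extreme of a group of 4 libraries for both genes. The gene srsf6a, which encodes an SR protein that acts on exon enhancers, had 33.0 and 60.0 in starved replicates 3 and 6, then 76.5 in fed replicate 3 and 93.9 to 137 in the rest. For srsf1b the lowest were 24.6 (starved replicate 3), 39.0 (fed replicate 6) and 52.3 (starved replicate 6), and for snrpa1, a U2 snRNP protein gene, 17.8, 37.9 (fed replicate 6) and 48.8. Fed replicate 3 had 98.0 for srsf1b, the highest of the fed group, and 70.0 for snrpa1.

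Not all members followed. In hnrnpl, which is separated from srsf7a by only 546 bases on chromosome 5 (bases 36899691 to 36911903 and 36895545 to 36899144), the same libraries were at the top, at 329 and 336 (starved replicates 3 and 6), while the other 10 spanned 115 to 254. The counting rules are not known for these neighbours either, and reads may have been assigned between them with error. The hnRNP A1 copy hnrnpa1a had 64.9 and 72.0 in starved replicates 3 and 6, inside and at the top of its range of 31.1 to 72.0. Sm gene snrpf stayed between 242 and 331 in every library. The prpf class as a whole had a mean centred log2 value of 0.00 in starved replicate 3, where the SR class had -0.63 and the snrp class -0.46.

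**Figure D3:**
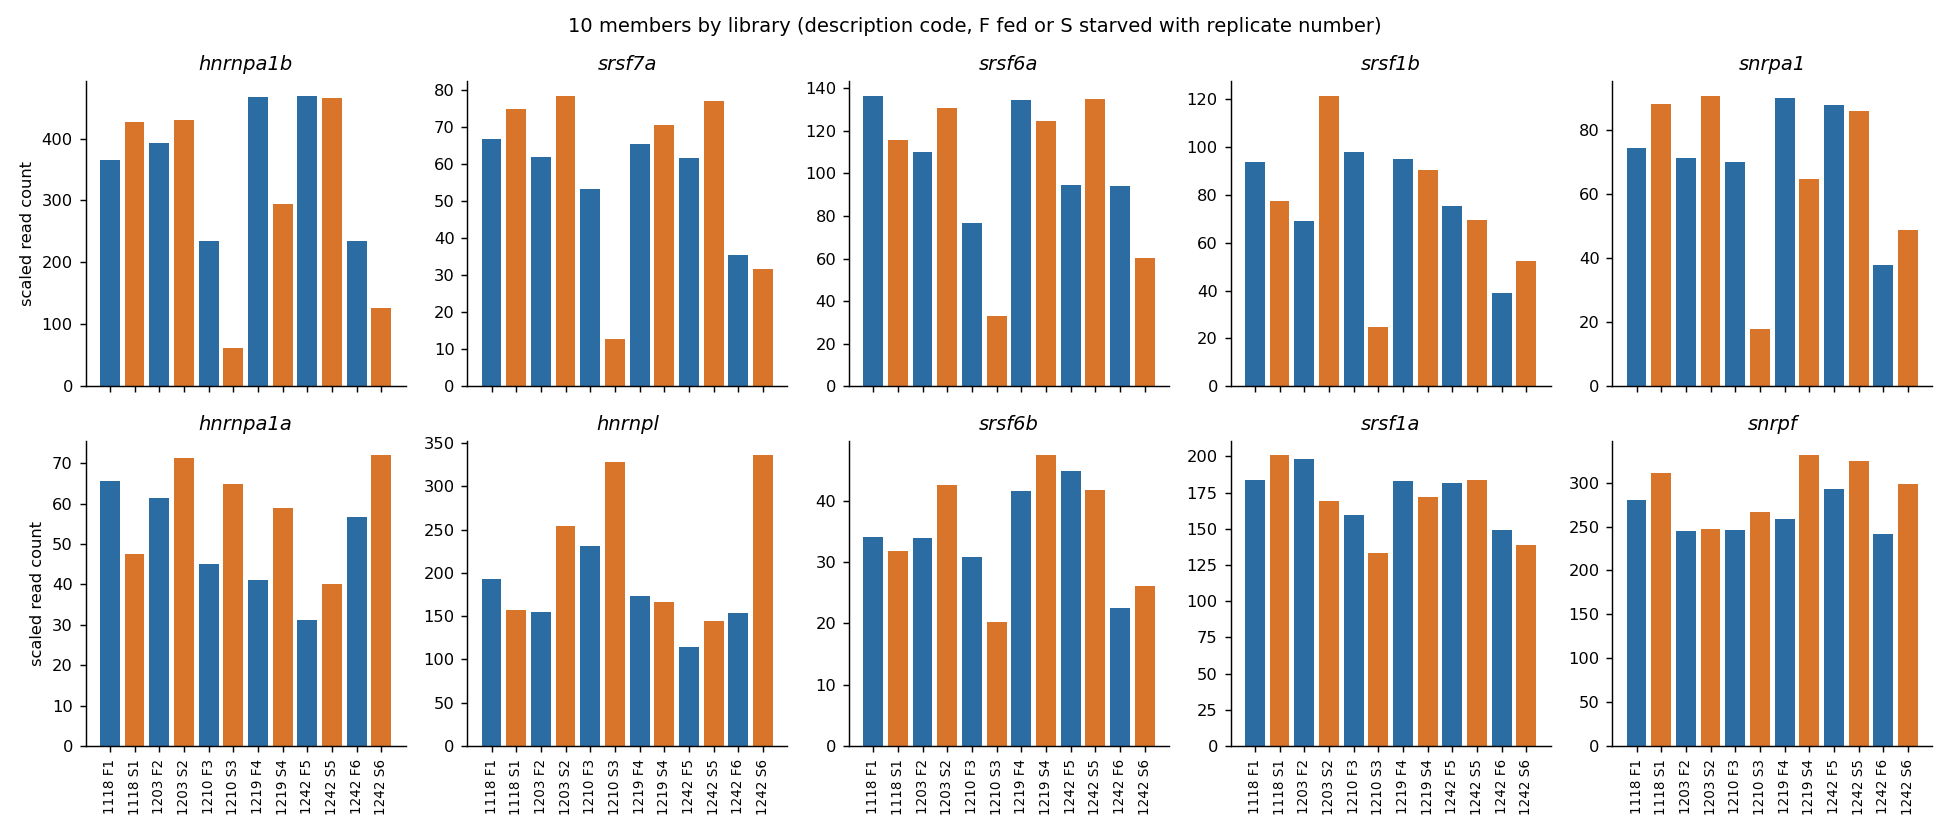
Scaled read count of 10 members in each of the 12 libraries, ordered by description code, with fed fathers in blue and starved fathers in orange; bars start at 0. In the upper row starved replicate 3 (1210 S3) has the lowest bar of each gene, while in hnrnpl below it the bar of that library, 329, is the second highest.

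Fed replicate 5 was often at an extreme, over all genes as well as among the members. Of all listed genes it held the lowest value of 11.21% and the highest of 13.15%. Of listed genes with a mean of at least 20 it held the lowest value of 19.7% and the highest of 14.2%, and of the 84 members the lowest of 25.0% and the highest of 20.2%. It had the highest value of 7 of the 12 lsm genes and of 5 of the 11 snrp genes, and the lowest value of 6 of the 13 prpf genes and 8 of the 24 hnrnp genes. The Sm gene snrpg had 143 there, against 14.5 to 62.4 in the other 11 libraries, snrpd2 had 124 against 36.8 to 81.6, and lsm8 had 46.0 against 8.92 to 23.8. For lsm3 the value was 71.5 against 10.8 to 51.8. Both hnRNP U genes were lowest there, hnrnpub with 249 and hnrnpua with 83.1. The class means of fed replicate 5 were 0.49 for lsm and 0.46 for snrp, and -0.22 and -0.21 for hnrnp and prpf (mean centred log2 values).

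**Figure D4:**
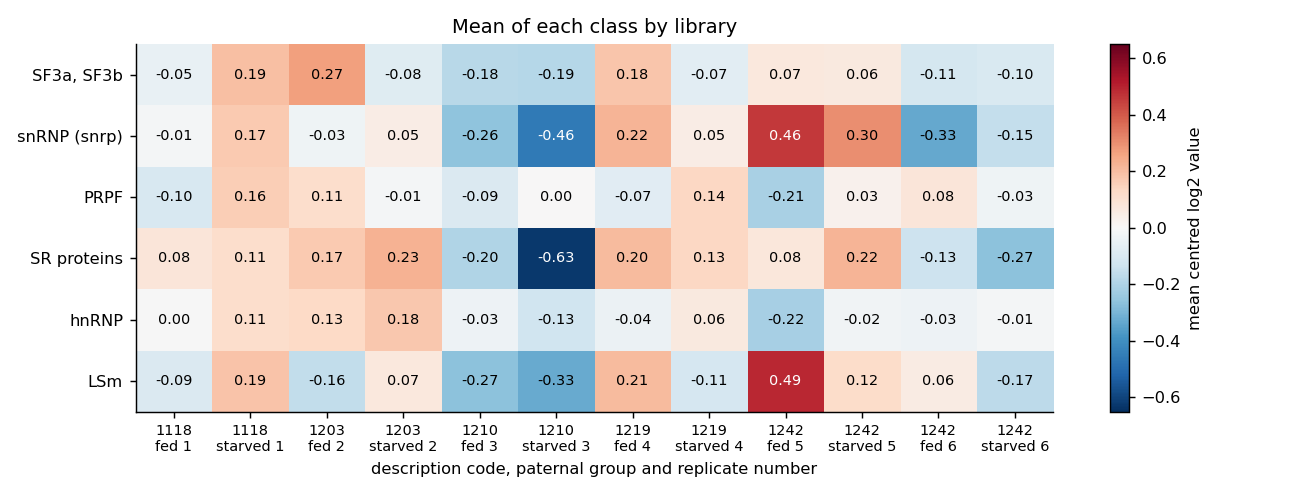
Mean over the members of each class of the log2(value + 1) centred per gene, for the 12 libraries ordered by description code (red, above the gene's mean; blue, below). The lowest cell is the SR class in starved replicate 3 (-0.63), and the highest is the LSm class in fed replicate 5 (0.49).

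Tissue markers and the mitochondrial transcript also differed in these libraries. Fed replicate 5 had the highest share of the mitochondrial transcript (48.7%) and starved replicate 3 the lowest (27.0%). Yolk syncytial layer markers (5 of 6 measured, none at 0 in any library) summed to 3079 to 8641 in the libraries of fed fathers and 1353 to 5380 in those of starved fathers, with the highest sum in fed replicate 5 and 2421 in starved replicate 3. Neuronal markers (6 of 6, none at 0) summed to 336 to 914 and 472 to 832, and markers of proliferating cells (6 of 6, none at 0) to 1055 to 1452 and 1374 to 1607. The lowest sum of both these lists was in fed replicate 5, whereas starved replicate 3 had the highest sum of either list among starved fathers' libraries. Muscle markers (6 of 6, none at 0) summed to 2680 to 9015 and 4210 to 9250, with 2919 in fed replicate 5. Erythroid markers (6 of 6) summed to 156 to 398 and 116 to 449, the lowest in starved replicate 3, and lens markers (5 of 6) to 16.0 to 205 and 24.5 to 153, with 30.7 in fed replicate 5. Their part in the levels of the splicing genes was not tested.

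The libraries carry description codes, 5 in all, with 1 library per group for codes 1118, 1203, 1210 and 1219 and 2 per group for code 1242. In code 1242 a letter D marks replicate 5 and a letter E replicate 6 of each group. What the codes and letters stand for is not stated. Differences between codes at equal paternal group were tested with limma's F test over all genes, with the letters D and E pooled. Of the 84 members 0 passed (1.12% of all listed genes did), and the smallest adjusted p was 0.109, for srsf6a, followed by 0.115 for srsf3b and 0.132 for hnrnpa1b. At an unadjusted p below 0.05 there were 14 members, 16.7%, against 11.9% of all listed genes, and 4 of these were SR genes, 4 hnrnp genes, 3 snrp genes, 2 lsm genes and 1 a prpf gene. For srsf3b the lowest code mean was that of 1210, from 158 in fed replicate 3 and 81.7 in starved replicate 3, while the other 10 libraries ran from 161 to 293. Differences between D and E counted as spread within code 1242 in this test. For hnrnpa1b that code had 469 (fed) and 466 (starved) under D, and 235 and 126 under E. The libraries lowest in hnrnpa1b and srsf7a, replicates 3 and 6 of both groups, were those of code 1210 and of letter E. Without starved replicate 3 there were 2 members at an unadjusted p below 0.05, 2.38% against 8.88% of all listed genes, so that the members' share lay above the background with this library and below it without. Leaving out a library of code 1242 brought calls by adjusted p. Calls were not confined to that code, since they also arose without fed replicate 3, a fit that left code 1210 with a single library. Without fed replicate 5 there were 3 of 84 members (hnrnpa1b, srsf3b and srsf6a), against 2.51% of all listed genes. Without starved replicate 5 there were 2 (hnrnpa1b and srsf6a), against 1.389%. Only hnrnpa1b was called without fed replicate 6 (2.36% of all listed genes) or without starved replicate 6 (1.235%). In simulated data this F test made false calls above its nominal rate. Where leaving out a library left a code with a single library, that code was assumed to vary like the others. Further members with the smallest p of their class were hnrnpa0b (adjusted p = 0.263), prpf39 (0.264), snrpb (0.284), lsm8 (0.312), lsm3 (0.334), snrpg (0.401), prpf4 (0.556), sf3a2 (0.480) and sf3b5 (0.782), all by limma's F test.

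Many zebrafish genes exist as copies named a and b, often dating from the genome duplication of bony fish. By name alone 12 such pairs were among the members, and the origin of the copies was not examined. In each the copies were compared within libraries, by an exact sign-flip permutation test of the log2 ratio over the 12 libraries (two-sided, smallest p possible 0.000488, adjusted over 12 pairs). The levels of the copies differed in 11 of 12 pairs, and in 9 pairs the order was the same in all 12 libraries. The share over other a and b pairs of the listed genes was not computed, so this count cannot be called particular to splicing genes. The a copy was the higher in 6 pairs and the b copy in 6. Reads of copies may be split with error where their 3' ends are alike.

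The largest imbalance was that of the SR genes srsf2a, with 142 ± 20.9, and srsf2b, with 22.5 ± 4.52 (SD, n = 12), a log2 ratio of 2.62 ± 0.28 (SD; adjusted exact p = 0.000651). In the other direction hnrnpa1b exceeded hnrnpa1a, at 331 ± 139 and 54.6 ± 13.3, with a log2 ratio of a over b of -2.43 ± 1.13 (adjusted exact p = 0.00107). This pair was also the least constant, since its ratio ran from -3.87 in fed replicate 5 to 0.06 in starved replicate 3, the only library in which the a copy was higher. The ratio of srsf3a to srsf3b (121 ± 17.1 and 220 ± 60.0) behaved alike, with the b copy higher in 11 libraries and the a copy in starved replicate 3 (log2 ratio -0.80 ± 0.43; adjusted exact p = 0.00107).

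In the remaining SR pairs the a copy was higher in 12 of 12 libraries. The log2 ratio was 2.04 ± 0.50 for srsf5a over srsf5b, 1.50 ± 0.40 for srsf6a over srsf6b and 1.27 ± 0.52 for srsf1a over srsf1b (SD, n = 12). Within the srsf1 pair, srsf1a ranged 1.51-fold over the libraries and srsf1b 4.94-fold. The closest balance was that of hnrnpa0a (261 ± 47.3) and hnrnpa0b (211 ± 51.9), with a log2 ratio of 0.33 ± 0.52 and an adjusted exact p of 0.0503, below 0.05 without fed replicate 1, starved replicate 2 or starved replicate 5.

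Steadier ratios were found elsewhere. The mean of hnrnpaba was 2.15-fold that of hnrnpabb, with an SD of 0.16 in the log2 ratio, and the log2 ratio of hnrnpua to hnrnpub was -1.63 ± 0.16 (SD, n = 12). The b copy was also the higher in 12 libraries for prpf4ba and prpf4bb (-1.63 ± 0.31), lsm14aa and lsm14ab (-1.75 ± 0.22), whose proteins repress translation in the cytoplasm, and lsm12a and lsm12b (-1.35 ± 0.36). The adjusted exact p was 0.000651 in each of these 5 pairs.

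**Figure D5:**
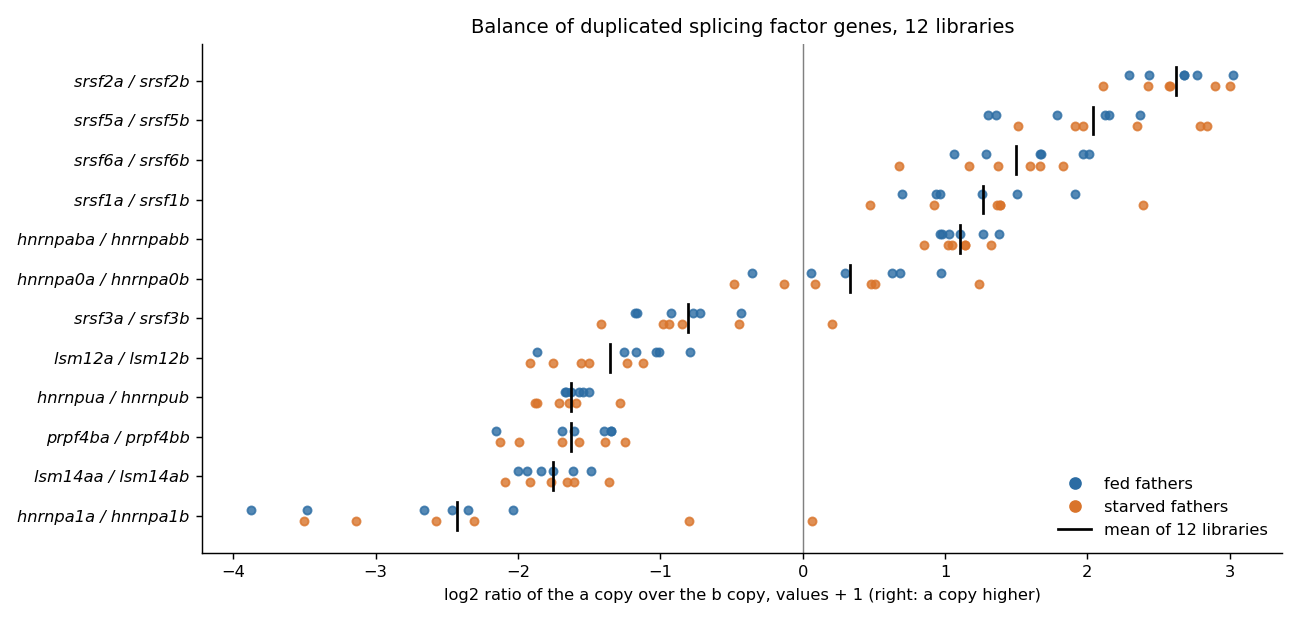
Log2 ratio of the a copy over the b copy (values + 1) in each library for 12 pairs, with fed fathers in blue, starved fathers in orange and the mean of 12 libraries as a bar. Points to the right of 0 have the a copy higher; the hnrnpa1 pair has the widest spread, from -3.87 to 0.06.

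The balance of copies was also compared between the groups, by an exact permutation test over all arrangements of the libraries (two-sided, smallest p possible 0.00216, adjusted over 12 pairs). The ratio passed in 0 of 12 pairs, and the smallest unadjusted p was 0.123, for lsm12a over lsm12b, at -1.19 in the fed and -1.51 in the starved group (adjusted exact p = 0.781). The hnrnpa1 ratio was -2.81 and -2.04 in these groups (exact permutation p = 0.268, adjusted 0.781).

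Other genes of the splicing pathway that the naming rule does not match gave 200 rows in 7 lists. None passed limma's test between the groups (smallest adjusted p = 0.775), and 131 averaged higher and 69 lower in the starved group, with a median log2 difference of 0.09 against -0.01 for the 84 members. Thus 65.5% were higher, where 48.0% of all listed genes were, and 50.9% of listed genes with a mean of at least 5. At an unadjusted p below 0.05 there were 18 of them (12 higher, 6 lower), 9.0% against 5.54% of all listed genes (2.11% higher, 3.44% lower). Without starved replicate 3 the median of the 84 members was 0.08, with 56 higher. The median of the 200 rows was not computed without that library, so their contrast with the members may depend on it. By list, the higher and lower counts were 44 and 21 for further snRNP and spliceosome core genes, 14 and 9 for genes that recognise the 3' splice site, 18 and 8 for SR-related proteins and SR kinases, 9 and 2 for the exon junction complex, 9 and 8 for snRNP assembly, 20 and 8 for tissue regulators and 17 and 13 for other RNA-binding proteins of the hnRNP kind.

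Single genes of these lists did not pass either. The spliceosome helicase gene ddx23 had 109 ± 11.1 (fed) and 139 ± 16.0 (starved), cdc40, a factor of the second step, 20.2 ± 3.07 and 28.9 ± 6.03, and puf60a, which helps recognise the 3' splice site, 44.9 ± 7.12 and 61.5 ± 9.99. The RNA-binding protein gene tardbp had 150 ± 22.8 and 193 ± 29.7, caprin1a 70.4 ± 13.7 and 100.3 ± 14.1, and gemin5, which recognises snRNAs for Sm ring assembly, 10.9 ± 3.50 and 6.75 ± 2.62. The epithelial regulator esrp1 had 16.2 ± 7.22 and 9.68 ± 6.60 and the muscle regulator rbfox1l 53.2 ± 15.8 and 77.3 ± 27.2 (SD, n = 6 for each of these). The groups failed to overlap for wdr83 alone, 1 of the 200 rows, where they failed to overlap for 0.234% of all listed genes. This gene was near the floor at 2.75 ± 1.47 and 0.59 ± 0.42.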

How the data were processed

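Libraries were made from 67.5 ng of RNA with the QuantSeq 3' forward kit and 18 PCR cycles, per the labels' protocols. The submitters' processing notes name STAR, edgeR and GRCz11 (danRer11). How reads were counted, whether strand was used and how genes were filtered are not stated in them. The deposited values are a signal, namely counts of reads scaled by 1 factor for each library. This was read from the values, 100% of which came within 0.03 of a whole read. Per the file headers, the authors' log2 fold change and FDR (an adjusted p-value) stand beside them. The main test was limma 3.58.1 (R 4.3.3) on log2(value + 1), which understates changes of low genes, with a trend, without a block, Benjamini-Hochberg over 13680 genes and a threshold of 0.05. Recovered reads served edgeR 4.0.16 (TMM) and DESeq2 1.42.0 as alternatives, with others given in the closing section. Methods were tested on simulated data, where the test over description codes made false calls above its nominal rate. No pair of libraries within a group was a duplicate (chi-square per degree of freedom at least 6.33).

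Members, lists and tests were chosen with earlier results of these data known. Genes were named by class: the highest and lowest levels, the smallest p in each test, and all copies in pairs; prpf38a with prpf38b and snrpa with snrpb are different genes and no pairs. Other genes singled out, such as those of the widest range at a mean of at least 20, were chosen after their values were seen. The values of 1 member are not reported here singly or plotted by gene; it is kept in the counts and fits. All 84 identifiers were found in a reference list of names, 66 with the same symbol irrespective of case. The spans of 8 members (hnrnpa0a, hnrnpd, hnrnpdl, hnrnpm, lsm11, prpf38a, sf3a1 and srsf11) overlap another listed gene, and their reads are uncertain where strand was not used.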

Additional observations from a re-analysis of the deposited data

Results flagged for a closer look

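In groups of 6 libraries, a value was picked out when its gap to the nearest other value exceeded 0.625 of the group's range. This applied to 9 of the 168 groups of the 84 genes, 5.36%, and chance gives about 1 in 20 for normally distributed values. The share over all listed genes was not computed. In fed replicate 5, hnrnpua (83.1) and hnrnpub (249) stood below the other libraries of fed fathers, as did srsf2b (15.7), while snrpd2 (124) and snrpg (143) stood above them, so that 5 of the 9 values come from this library. In fed replicate 6 snrpc was low (61.3), and in fed replicate 4 srsf10b was high (40.4). Among the libraries of starved fathers, the hnrnpa0l row of chromosome 20 was high in replicate 2 (15.5) and srsf2a in replicate 1 (161). Starved replicate 3 was not picked out for any gene.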

How the results depend on the processing

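Between starved and fed fathers 0 members and 0 other splicing genes passed under every alternative run: pseudocounts of 0.5 and 5, a minimum mean of 5 (79 members left), TMM scaling, edgeR, DESeq2, blocks, replicates 5 and 6 averaged, each library left out, a threshold of 0.1 and, chosen after seeing the data, without fed replicates 4 and 5. The median log2 difference lay between -0.03 and 0.08 when each library was left out, with 38 to 56 members higher. Of all listed genes 47.5% to 49.04% were higher in these fits. The 18 members named for this comparison did not pass in any of 395 values and none changed sign, but in 15 values of 7 members the difference shrank by over 1.5 times. Without fed replicates 4 and 5, hnrnpul1l went from 0.50 to 0.00, lsm3 from -0.55 to -0.23, lsm8 from -0.44 to -0.15 and sf3b5 from -0.90 to -0.47. In that setting prpf4bb, snrpb2 and hnrnpub went to 0.12 to 0.16. Without fed replicate 5 alone the values were 0.31 for hnrnpul1l, -0.36 for lsm3, -0.22 for lsm8, 0.19 for snrpb2 and 0.17 for hnrnpub. The rest were hnrnpul1l without fed replicate 4 (0.29), lsm3 without starved replicate 3 (-0.33) and sf3b5 with a pseudocount of 5 (-0.51). Same-numbered libraries share a description code, and in code 1242 also the letter D or E. They deviated together with correlations of 0.0993 to 0.445, and in 4 of 6 numbers the best match of the fed library was its own number. The labels do not say whether a shared code marks a pairing. With the replicate number as a block 0 members passed (smallest adjusted p = 0.262; 12 at an unadjusted p below 0.05, 14.3% against 9.21% of all genes), with 39 of all genes called against 0 without. In same-numbered libraries 5 members (hnrnpua, prpf3, prpf38b, snrpa and snrpf) were higher in the starved library for 6 of 6 numbers, and 2 (lsm3 and lsm8) were lower. The share over all listed genes was not computed, so these counts cannot be called particular to the members. The summed proliferation markers were higher and the summed yolk markers lower for 6 of 6 numbers, and their part was not tested. With the description code as a block there were 0 members and 1 gene called; the ratio of copies gave 0 of 12 pairs with the replicate block. Between description codes 0 to 3 members passed when each library was left out, and 17 to 343 of all genes against 153; with the minimum mean of 5 the number of all genes was 84, with edgeR 102 and at a threshold of 0.1 263, with 0 members in each. Copies differed in 11 to 12 pairs. Members under 10 scaled reads, 8 in all, rest on too few reads for small differences.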
